A study of Mus musculus with 15 samples.

Results

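Cofactors of nuclear receptors were followed in the parvalbumin class of cortical inhibitory neurons, which fire at high rates, in mice with altered thyroid hormone signalling. The set holds 9 genes, taken by name from the count tables: Ncor1, Hdac3, Tbl1x, Tbl1xr1, Ncoa1, Ncoa2, Ncoa3, Med1 and Ep300. All 9 were found in the tables of all 15 libraries, out of 57282 gene symbols in all. Thyroid hormone receptors sit on DNA with or without hormone. Without hormone they hold a corepressor complex built on Ncor1, whose Hdac3 subunit removes acetyl groups from histones, and hormone exchanges that complex for coactivators of the steroid receptor coactivator family (Ncoa1, Ncoa2 and Ncoa3), for the acetyltransferase Ep300 and for Mediator through its subunit Med1.

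The RNA came from fluorescent nuclei sorted from the cortices of individual adult mice, 1 library per animal. PTU_TH (n = 4) were Thra+/+ mice that ate propylthiouracil (PTU), an inhibitor of thyroid hormone synthesis, for 2 weeks and received thyroid hormone by intraperitoneal injection 24 h before dissection. PTU (n = 3) were Thra+/+ mice on the same diet without the injection. Mut (n = 4) were ThraAMI/+ mice, untreated, in which recombination of a floxed allele makes a dominant negative form of the hormone receptor encoded by Thra. Ctrl (n = 4) were untreated Thra+/+ littermates of the Mut mice. Every animal of all 4 groups also carried PvCre, which drives Cre from the parvalbumin gene, and the ROSA-tomato-lox reporter that marks the sorted nuclei. The mutant receptor is thus made in cells with Cre activity, while PTU and the hormone act on the whole animal.

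Libraries held 12957838 to 19141683 counts in PTU_TH, 14470513 to 15449322 in PTU, 22333742 to 32571175 in Mut and 23786090 to 25377904 in Ctrl. Thra, the altered gene, averaged 32.8 ± 4.57 CPM (counts scaled to library size) in Mut and 58.7 ± 6.46 CPM in Ctrl (SD, n = 4 each), and fell by 0.84 on the log2 scale (Benjamini-Hochberg adjusted p = 0.028 by the quasi-likelihood test of edgeR). The share of counts from genes over 100 kb ran from 24.9% to 40.7% across libraries, and Y-linked counts were present in PTU_TH replicates 3 and 4, PTU replicates 6 and 7, Mut replicates 1, 2 and 3 and Ctrl replicate 2. The 7 genes listed for parvalbumin neurons were Pvalb, Gad1, Gad2, Slc32a1, Erbb4, Kcnc1 and Lhx6. They summed to 4919 to 6511 CPM in PTU_TH, 4598 to 6279 in PTU, 6175 to 7880 in Mut and 6100 to 8132 in Ctrl. Over all 15 libraries the summed markers reached at most 529 CPM for excitatory neurons (10 genes), 245 for other interneurons (7 genes), 168 for the oligodendrocyte lineage (5 genes), 29.1 for astrocytes (5 genes), 16.9 for microglia (5 genes) and 12.9 for endothelial cells (3 genes). By median over the 15 libraries, Erbb4 had 3017 CPM, Gad1 1364 and Kcnc1 1134, while Pvalb itself had 67.1 to 150.4 CPM. Gad1, Gad2 and Slc32a1 mark inhibitory neurons in general, so the sum does not separate parvalbumin neurons from other interneurons. The astrocyte marker Gfap and the microglia marker P2ry12 had 0 counts in all 15 libraries. The other astrocyte markers, Aqp4, Slc1a3, Aldh1l1 and Gja1, had counts in every library, with Slc1a3 at 2.38 to 18.6 CPM. The microglia markers Cx3cr1 and C1qa also had counts in every library, and Csf1r reached 7.78 CPM.

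Each member had between 798 and 14428 counts in every library, so all 9 passed the filter on low counts in every comparison. On GRCm38, the corepressor genes are Ncor1 at chr11:62316426-62458541 (minus strand), Hdac3 at chr18:37935844-37955016 (minus), Tbl1x at chrX:77511013-77662983 (plus) and Tbl1xr1 at chr3:22076652-22216594 (plus). The coactivator genes are Ncoa1 at chr12:4247362-4477182 (minus), Ncoa2 at chr1:13139105-13374083 (minus), Ncoa3 at chr2:165992636-166073242 (plus), Med1 at chr11:98152154-98193293 (minus) and Ep300 at chr15:81585351-81652077 (plus). Levels of different genes were compared as CPM per kb of exon. The exon annotation (GENCODE M21, GRCm38) gives 4054 bases for Hdac3 and 15642 for Ncoa2, the shortest and the longest of the set. In Ctrl the order was Hdac3 at 112 CPM per kb, Ncoa1 at 37.8, Ncoa3 at 25.6, Ncor1 at 19.3, Ncoa2 at 11.8, Tbl1x at 10.4, Ep300 at 9.24, Tbl1xr1 at 8.29 and Med1 at 8.21. Hdac3 stood at percentile 99.5 of the 21150 protein-coding genes in Ctrl, and Med1 at percentile 72.1. The libraries of the first 5 genes in this order did not overlap between neighbours in Ctrl, whereas from Ncoa2 down each neighbour overlapped the next.

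PTU_TH and PTU libraries kept the same order of the 9 means as Ctrl. In Mut, Ncor1 at 19.7 CPM per kb stood above Ncoa3 at 18.4, but these 2 overlapped, and Ncoa1 at 32.7 overlapped Ncor1. By group, Ncoa3 was at 29.8 CPM per kb in PTU_TH, 20.8 in PTU, 18.4 in Mut and 25.6 in Ctrl. The annotation, not the transcripts made in these nuclei, sets the lengths, so the order holds for full exon models only.

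**Figure D1:**
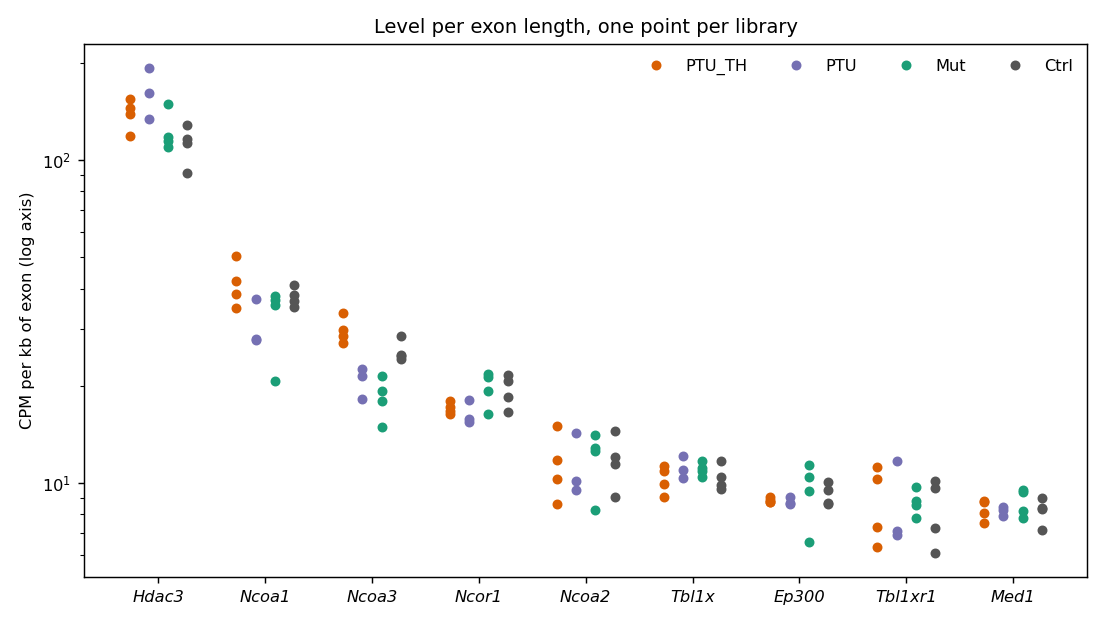
Level of each cofactor gene in CPM per kb of exon (vertical log axis), with 1 point per library and the genes ordered by their Ctrl mean. Hdac3 lies above all others in every group, and Ncoa3 in Mut overlaps the Ncor1 points, whereas in Ctrl it lies above them.

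The Ncoa genes and Med1 contact the hormone-bound receptor through LxxLL motifs, short helices with 3 leucines at fixed spacing. The longest coding transcript holds 7 matches to this leucine spacing in Ncoa1, 4 in Ncoa2, 6 in Ncoa3 and 2 in Med1. Ncor1 holds 1 and Ep300 3. Matches were counted over the whole protein, in or outside the receptor interaction region, and their binding was not tested. Those of Ncoa3, the member with the smallest p in PTU_TH against PTU and in Mut against Ctrl, are shown for its receptor interaction region in exon 12, read from the GRCm38 transcripts, with the middle motif of its relatives and both motifs of Med1. Capitals mark the codons of the 3 leucines.
Ncoa3, chr2:166055121-166055147, plus strand, first leucine at residue 613: aagaaaCTGctgcagTTACTCacgtgc
Ncoa3, chr2:166055313-166055339, plus strand, first leucine at residue 677: cggattTTGcacaagTTGCTGcagaat
Ncoa3, chr2:166055469-166055495, plus strand, first leucine at residue 729: gctctgCTTagatacCTGCTGgacagg
Ncoa1, chr12:4295246-4295272, minus strand, exon 9, first leucine at residue 694: aaaattCTGcaccggCTTTTAcaggag
Ncoa2, chr1:13174385-13174411, minus strand, exon 11, first leucine at residue 690: aagattTTGcacagaCTCTTAcaggac
Med1, chr11:98158139-98158165, minus strand, exon 17, first leucine at residue 604: ccaattCTTaccagtTTGTTGcaaatc
Med1, chr11:98158016-98158042, minus strand, exon 17, first leucine at residue 645: ccgatgCTCatgaacCTTCTTaaagat

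These relatives encode similar motifs with different bases, which bears on whether reads can be told apart between them. The longest run of bases shared by any transcripts of 2 members of the family was 20, between Ncoa2 and Ncoa3, while reads were 75 bases long. Tbl1x on chromosome X and Tbl1xr1 on chromosome 3, paralogs of the corepressor complex, likewise shared at most 20 bases.
Tbl1x and Tbl1xr1, longest shared run: aagatctggagtatgaagca
Ncoa3 shares 154 of its 7895 exon bases, 1.95%, with the neighbouring gene Sulf2. Of its 7961 distinct words of 75 bases, 80 also occur in Sulf2 transcripts, so reads from that stretch cannot be assigned to one of the 2 genes. For the other 8 members, words found in another gene made up at most 0.558% of the total, in Ncor1.

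PTU_TH against PTU addressed the response to hormone within 24 h in animals depleted by PTU. None of the 9 members was called at an adjusted p under 0.05 in PTU_TH against PTU, and 2 had an unadjusted p under 0.05, Ncoa3 and Ncoa1. Over all 15288 genes tested, 43 were called, or 0.281%, and 7.37% had an unadjusted p under 0.05, so a count of 0 among 9 is near the background. DESeq2 called 1 member, Ncoa3, and 1.61% of all genes. The median log2 fold change of the members was 0.0276, beside −0.00293 over all genes.

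Ncoa3, a coactivator also known from its amplification in human breast cancer, was higher in every PTU_TH library than in any PTU library. It had 226, 266, 235 and 214 CPM in PTU_TH replicates 1 to 4, against 179, 170 and 144 CPM in PTU replicates 5 to 7. The libraries did not overlap between the groups; 4.21% of all genes were higher in PTU_TH without overlap. The mean was 235 ± 22.1 CPM in PTU_TH (n = 4) and 164 ± 18.1 CPM in PTU (SD, n = 3), a log2 fold change of 0.53 ± 0.135 (SE), or 1.45-fold with a 95% interval of 1.17 to 1.79. Its edgeR p of 0.00355 ranked 210 of 15288 genes and gave an adjusted p of 0.258. The adjusted p was 0.037 by DESeq2, 0.0187 with Y-linked counts and 0.000144 with the long-gene share in the fit, and up to 0.279 in the other settings that kept all libraries. The fit with Y-linked counts called 2.19% of all genes and the fit with the long-gene share 6.61%.

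Because no PTU_TH library of Ncoa3 overlapped a PTU library, any split of these libraries had to keep this order. The values by Y-linked content are thus a description only. With Y-linked counts, Ncoa3 had 214 and 235 CPM in PTU_TH and 144 and 170 CPM in PTU. Without them, it had 226 and 266 CPM in PTU_TH and 179 CPM in the single PTU library. Sulf2, the gene that shares the exon stretch, averaged 289 ± 4.00 CPM in PTU_TH and 249 ± 12.6 CPM in PTU, a log2 fold change of 0.22 (adjusted p = 0.746, edgeR), and its part in the Ncoa3 value was not tested.

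Ncoa1, the founding member of the coactivator family and the most abundant of the 3 per length, had 362, 433, 331 and 298 CPM in PTU_TH replicates 1 to 4. In PTU replicates 5 to 7 it had 318, 238 and 240 CPM. The groups overlapped through PTU_TH replicate 4 and PTU replicate 5. The log2 fold change was 0.43 ± 0.187 (SE), with an unadjusted p of 0.0459 and an adjusted p of 0.666 (edgeR). With the share of counts from long genes in the fit, Ncoa1 was called (adjusted p = 0.000529), while the other settings with all libraries gave up to 0.827; it spans 229.8 kb, and the highest long-gene shares were 40.7% in PTU_TH (replicate 2) and 39.6% in PTU (replicate 5).

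Ncoa2, the third family member, had 184, 236, 161 and 135 CPM in PTU_TH replicates 1 to 4, against 224, 159 and 149 CPM in PTU replicates 5 to 7. Its range was wide within each group and the groups overlapped, with a log2 fold change of 0.02 (95% interval −0.486 to 0.531). Across the 7 libraries it went with the Y-linked split, at 135 to 161 CPM in the 4 libraries that have such counts and 184 to 236 CPM in the 3 that lack them.

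As a share of the summed per-length level of the 3 Ncoa genes, Ncoa2 took 13.7% ± 1.29 in PTU_TH and 17.9% ± 1.26 in PTU. The ranges were 12.2% to 15.2% in PTU_TH and 17.2% to 19.3% in PTU, without overlap. This share was singled out after the values were seen and was not tested. The share of Ncoa3 overlapped, at 36.2% ± 2.27 in PTU_TH and 33.1% ± 2.83 in PTU.

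The 4 corepressor members overlapped between PTU_TH and PTU, and none had an unadjusted p under 0.05. Ncor1, the scaffold that holds Hdac3 on the receptor, had 220, 215, 230 and 209 CPM in PTU_TH replicates 1 to 4, against 232, 198 and 203 CPM in PTU replicates 5 to 7. Its log2 fold change was 0.06 with a 95% interval of −0.202 to 0.324. Hdac3, the deacetylase subunit, had 563, 479, 626 and 587 CPM in PTU_TH and 543, 779 and 653 CPM in PTU, a log2 fold change of −0.21 (95% interval −0.583 to 0.163). For Ncor1 the PTU values lay on both sides of the PTU_TH values, and for Hdac3 2 of 3 PTU values lay above all PTU_TH values.

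Tbl1x and Tbl1xr1, the paired beta-propeller subunits that take part in removing the corepressor once hormone binds, overlapped too. Tbl1x had 63.8 to 79.4 CPM in PTU_TH and 73.2 to 85.8 CPM in PTU, a log2 fold change of −0.11 (95% interval −0.384 to 0.168). Tbl1xr1 had 91.5, 99.6, 65.0 and 56.5 CPM in PTU_TH replicates 1 to 4, against 104.5, 63.3 and 61.4 CPM in PTU replicates 5 to 7. Both groups of Tbl1xr1 libraries held high and low values, along the Y-linked split, and its interval was the widest of the 9, −0.557 to 0.641.

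Ep300 and Med1 had the narrowest intervals of the 9 members. Ep300 lay between 124 and 129 CPM in PTU_TH and between 123 and 129 CPM in PTU, a log2 fold change of 0.02 (95% interval −0.183 to 0.229). Med1 lay between 66.1 and 76.9 CPM in PTU_TH and between 69.0 and 73.6 CPM in PTU, a log2 fold change of 0.03 (95% interval −0.194 to 0.249). Both intervals leave out a change of the size estimated for Ncoa3.

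The balance of corepressor to coactivator transcripts was described by the per-length ratio of Ncor1 to the summed Ncoa1, Ncoa2 and Ncoa3, which does not depend on library scaling. It was 0.208, 0.169, 0.229 and 0.232 in PTU_TH replicates 1 to 4, against 0.245, 0.260 and 0.284 in PTU replicates 5 to 7. All PTU_TH values lay below all PTU values, with means of 0.209 ± 0.0289 in PTU_TH and 0.263 ± 0.0199 in PTU. The summed coactivator level was 82.8 ± 12.1 CPM per kb in PTU_TH and 63.0 ± 9.71 in PTU, which overlapped. The ratio has no test across genes and is given as a description.

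**Figure D2:**
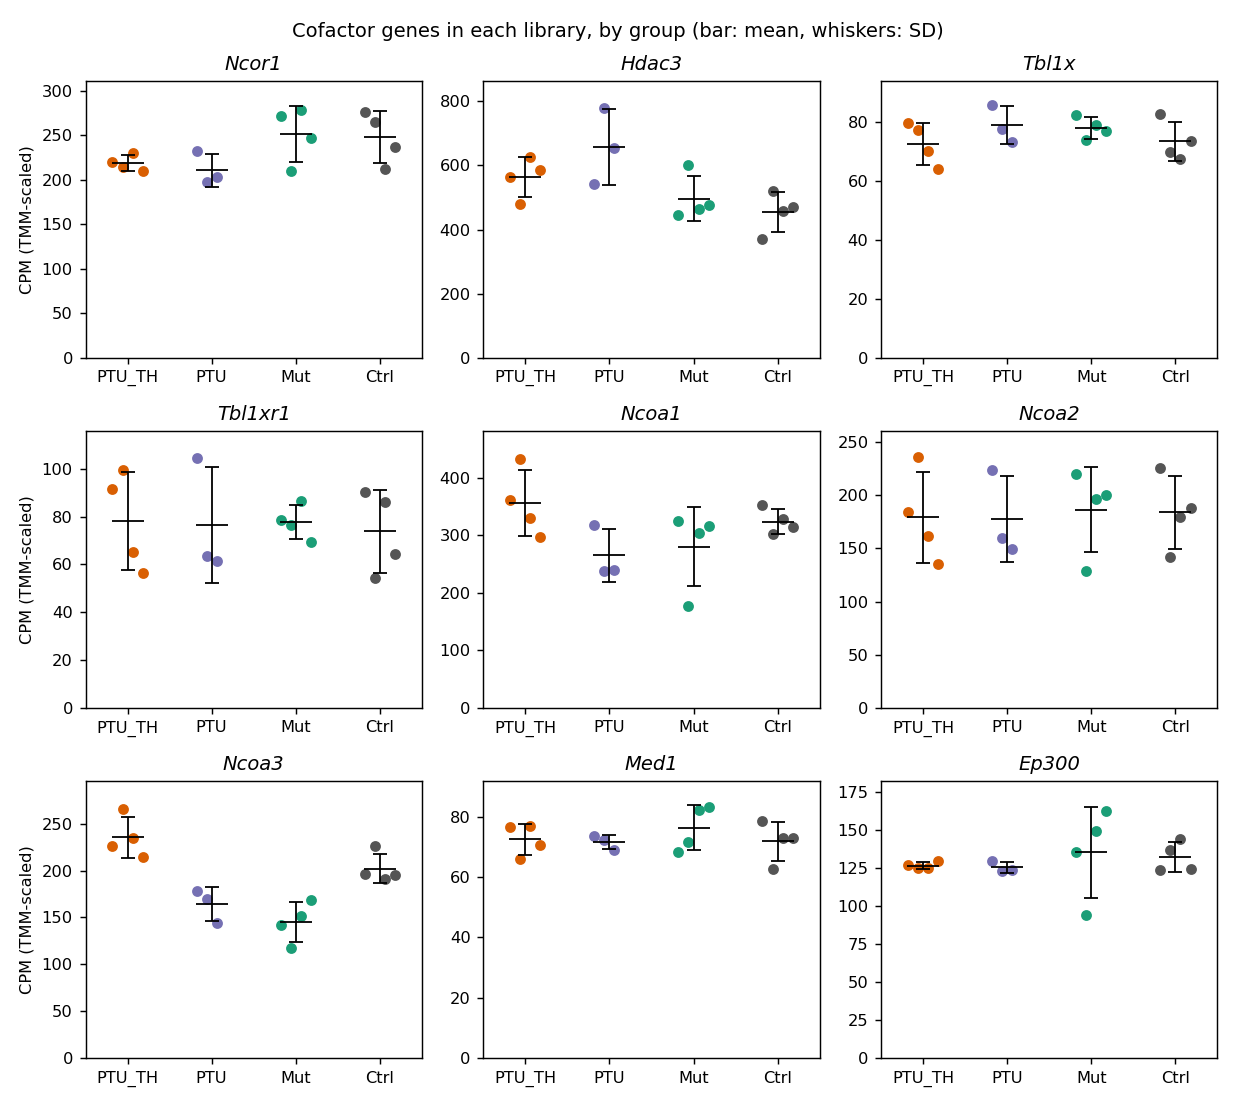
CPM scaled by TMM (vertical axes from 0) of each cofactor gene, with 1 point per library, a bar at the group mean and whiskers of 1 SD. The PTU_TH points of Ncoa3 lie above all PTU points, and its Mut points lie below all Ctrl points, while Ep300 in PTU_TH and PTU lies within 123 to 129 CPM.

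Mut against Ctrl addressed the effect of a dominant negative receptor in these neurons, and it shares no library with the injection comparison. None of the 9 members was called in Mut against Ctrl, and 1 had an unadjusted p under 0.05, Ncoa3. Of 16949 genes tested 59 were called, or 0.348%, and 8.74% had an unadjusted p under 0.05. DESeq2 called 1 member, again Ncoa3, and 2.24% of the genes to which it gave an adjusted p. The median log2 fold change was 0.0347 for the members and 0.0142 for all genes.

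Ncoa3 had 142, 118, 152 and 169 CPM in Mut replicates 1 to 4, against 197, 226, 191 and 195 CPM in Ctrl replicates 1 to 4. Every Mut library lay below every Ctrl library, as for 3.48% of all genes. The means were 145 ± 21.4 CPM in Mut and 202 ± 15.9 CPM in Ctrl (SD, n = 4 each), a log2 fold change of −0.48 ± 0.127 (SE) and a 0.718-fold level with a 95% interval of 0.592 to 0.87. The edgeR p of 0.00283 ranked 271 of 16949 genes and gave an adjusted p of 0.177, against 0.0272 by DESeq2 and up to 0.412 in the other settings that kept all libraries.

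With Y-linked counts present, Ncoa3 had 118 to 152 CPM in 3 Mut libraries and 226 CPM in the single Ctrl library. With them absent, it had 169 CPM in the single Mut library and 191 to 197 CPM in 3 Ctrl libraries. The same order in the 2 strata follows from the lack of overlap between all Mut and all Ctrl libraries. Each stratum had 1 library on 1 side. Sulf2 averaged 208 ± 35.1 CPM in Mut and 215 ± 19.8 CPM in Ctrl, a log2 fold change of −0.05. Markers of other interneurons summed to 130 to 245 CPM in Mut and 94.99 to 127 CPM in Ctrl, without overlap, and their part in the Ncoa3 value was not tested. In bulk nuclei, fewer cells of a type and less RNA per cell cannot be told apart.

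Ncoa1 had 325, 178, 304 and 316 CPM in Mut replicates 1 to 4, against 352, 302, 329 and 314 CPM in Ctrl replicates 1 to 4. Mut replicate 2 alone lay far below the rest. The log2 fold change was −0.21 ± 0.175 (SE) with all libraries (adjusted p = 0.854, edgeR) and −0.04 without Mut replicate 2.

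Ncoa2 had 220, 129, 196 and 201 CPM in Mut, against 226, 142, 179 and 188 CPM in Ctrl, again with replicate 2 lowest in both groups and a log2 fold change of 0.02. Its share of the 3 Ncoa genes was 18.9% ± 0.876 in Mut and 15.6% ± 2.31 in Ctrl, with ranges of 18.1% to 20.1% in Mut and 12.5% to 17.97% in Ctrl.

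Ncor1 had 272, 209, 279 and 248 CPM in Mut, against 277, 265, 212 and 237 CPM in Ctrl, and its log2 fold change of 0.03 had a 95% interval of −0.26 to 0.311. Hdac3 had 445, 602, 463 and 477 CPM in Mut and 370, 519, 458 and 471 CPM in Ctrl, a log2 fold change of 0.13 (95% interval −0.188 to 0.446). Neither gene separated the groups. Tbl1x lay between 73.7 and 82.4 CPM in Mut and between 67.4 and 82.7 CPM in Ctrl. Tbl1xr1 lay between 69.4 and 86.5 CPM in Mut and between 54.3 and 90.2 CPM in Ctrl. The 4 corepressor members thus overlapped in Mut and Ctrl.

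Med1 lay between 68.5 and 83.4 CPM in Mut and between 62.9 and 78.5 CPM in Ctrl, a log2 fold change of 0.09. Ep300 lay between 93.6 and 162 CPM in Mut and between 123 and 144 CPM in Ctrl, a log2 fold change of 0.03. The low Ep300 value came from Mut replicate 2, the library with the lowest Ncoa1 and Ncoa3 of its group and, at 27.4%, the lowest long-gene share. The Ncor1 to Ncoa ratio was 0.304, 0.372, 0.324 and 0.272 in Mut replicates 1 to 4, against 0.269, 0.284, 0.224 and 0.252 in Ctrl. The groups overlapped, with means of 0.318 ± 0.0421 in Mut and 0.257 ± 0.0257 in Ctrl.

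**Figure D3:**
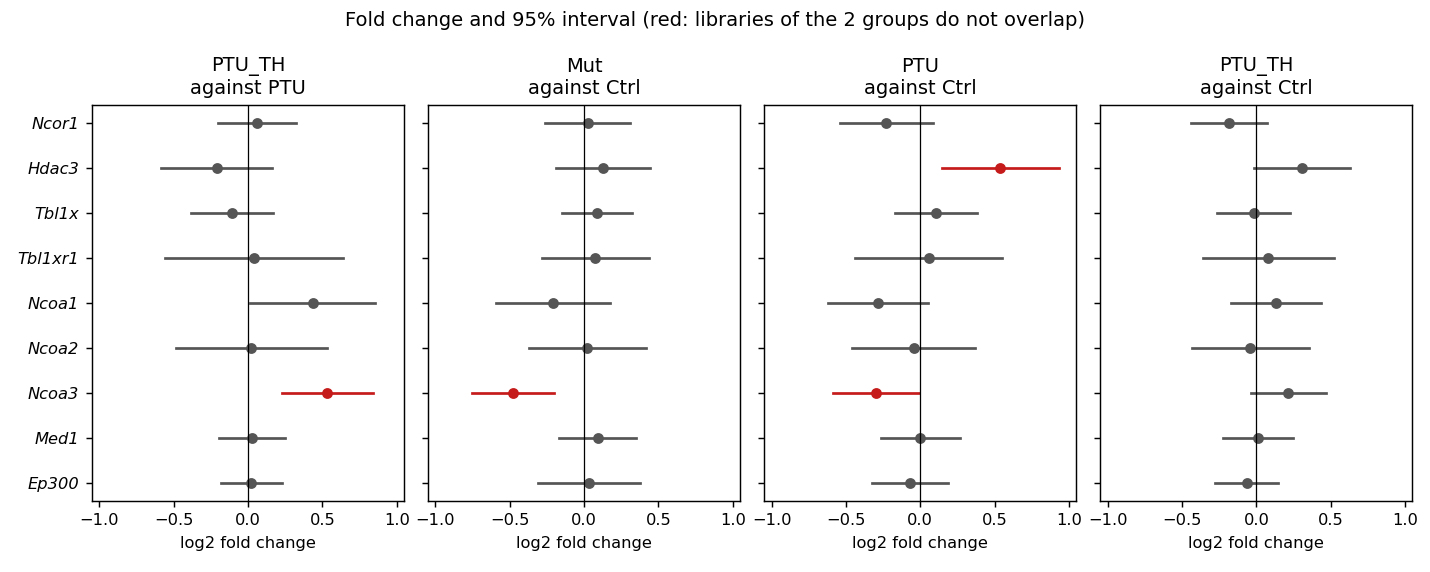
Log2 fold change of each cofactor gene (points) with its 95% interval (lines) in the 4 comparisons, edgeR; red marks genes whose libraries do not overlap between the 2 groups. Ncoa3 is at 0.53 in PTU_TH against PTU and at −0.48 in Mut against Ctrl, and Hdac3 is at 0.54 in PTU against Ctrl.

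PTU against Ctrl and PTU_TH against Ctrl addressed depletion without and with the injection. The PTU and PTU_TH tables list 55341 genes and those of Mut and Ctrl 48321, with 46380 symbols in common, so the treatment and the table cannot be told apart in these 2 comparisons. They share their Ctrl libraries with each other and with Mut against Ctrl, and PTU or PTU_TH with the injection comparison. None of the 9 members was called in PTU against Ctrl, where 17% of 16496 genes were, nor in PTU_TH against Ctrl, where 17.8% of 15814 genes were. In PTU against Ctrl 2 members had an unadjusted p under 0.05 (28.8% of all genes did), and in PTU_TH against Ctrl none did (30% of all genes). DESeq2 called 1 of 9 members in PTU against Ctrl, Hdac3, with an adjusted p of 0.0144, where it called 20% of all genes. It called no member in PTU_TH against Ctrl, where it called 21.5% of all genes, and where all 9 members overlapped and 23.2% of all genes did not. The median log2 fold change of the members was −0.0448 in PTU against Ctrl and 0.00949 in PTU_TH against Ctrl, beside −0.015 and −0.0162 over all genes. The 5 oligodendrocyte lineage markers, all with counts in every library, summed to 109.4 to 167.5 CPM in PTU and 87.6 to 105.8 CPM in Ctrl, without overlap, and their part in the PTU against Ctrl values was not tested.

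Hdac3 had 543, 779 and 653 CPM in PTU replicates 5 to 7, against 370, 519, 458 and 471 CPM in Ctrl replicates 1 to 4. All 3 PTU libraries lay above all Ctrl libraries, as for 9.51% of genes. The log2 fold change was 0.54 ± 0.179 (SE), or 1.45-fold (95% interval 1.11 to 1.91), with an unadjusted p of 0.0115 and an adjusted p of 0.0622 (edgeR), which ran from 0.00232 to 0.101 over the settings that kept all libraries. Beside DESeq2, Hdac3 was called with no filter, with all 4 groups in 1 fit and with the long-gene share in the fit, settings that called 13.4%, 18.2% and 24.3% of all genes. Without PTU replicate 5, the PTU library with the most counts from long genes, it was called at 0.65 (adjusted p = 0.0129), and without PTU replicate 6 it was 0.40 (adjusted p = 0.292). Without PTU replicate 5, 25.1% of all genes were called. With all libraries and Y-linked counts in the fit, Hdac3 was at 0.40 (adjusted p = 0.101, edgeR) and was not called. Hdac3 spans 19.17 kb, and in the PTU_TH and PTU libraries it had 587 to 779 CPM with Y-linked counts and 479 to 563 CPM without. PTU_TH against Ctrl gave 0.31 (adjusted p = 0.189), with overlapping libraries. It was called there with the long-gene share in the fit, as were 28.7% of all genes.

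Ncoa3 was below all Ctrl libraries in all 3 PTU libraries, as for 18% of genes, with a log2 fold change of −0.30 ± 0.133 (SE, adjusted p = 0.163, edgeR). In PTU_TH against Ctrl it was 0.22 (95% interval −0.0369 to 0.467), with overlap. Across the 4 groups Ncoa3 averaged 235 CPM in PTU_TH, 164 in PTU, 145 in Mut and 202 in Ctrl. In the order of these levels, Mut and PTU overlapped, PTU and Ctrl did not, and PTU_TH overlapped Ctrl.

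For the other 7 members the log2 fold change against Ctrl lay between −0.28 for Ncoa1 and 0.11 for Tbl1x in PTU, and between −0.18 for Ncor1 and 0.13 for Ncoa1 in PTU_TH. Their libraries overlapped in both comparisons. Without PTU replicate 5, the only PTU library without Y-linked counts, Ncoa1 was called lower in PTU than in Ctrl at −0.45 (adjusted p = 0.0274, edgeR). With all libraries Ncoa1 was at −0.28 (adjusted p = 0.249), and at −0.18 (adjusted p = 0.358) with Y-linked counts in the fit. Leaving out other libraries gave an adjusted p of up to 0.571. Against Ctrl, Ep300 was at −0.07 in PTU and −0.07 in PTU_TH, and the 95% intervals of Med1 were −0.266 to 0.269 in PTU and −0.225 to 0.244 in PTU_TH.

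Several members also varied among libraries of 1 group together with the share of counts from genes over 100 kb. In PTU_TH and PTU, that share was 24.9% to 28.4% in the 4 libraries with Y-linked counts and 34.1% to 40.7% in the 3 without. Tbl1xr1 had 56.5 to 65.0 CPM in the 4 libraries with Y-linked counts and 91.5 to 104.5 CPM in the 3 without, and Ncoa2, Tbl1xr1 and Hdac3 did not overlap between these libraries. This is 3 of 9 members, near the 34.5% of all genes that did not overlap between the same libraries. Tbl1xr1 spans 139.9 kb and Ncoa2 235 kb, while Hdac3, which ran the other way, spans 19.17 kb. Ncoa1 at 229.8 kb, Tbl1x at 152 kb and Ncor1 at 142.1 kb overlapped between the same libraries. The part of gene length was not tested. In Mut and Ctrl all 9 members overlapped between libraries with and without Y-linked counts, and 3.71% of all genes did not.

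**Figure D4:**
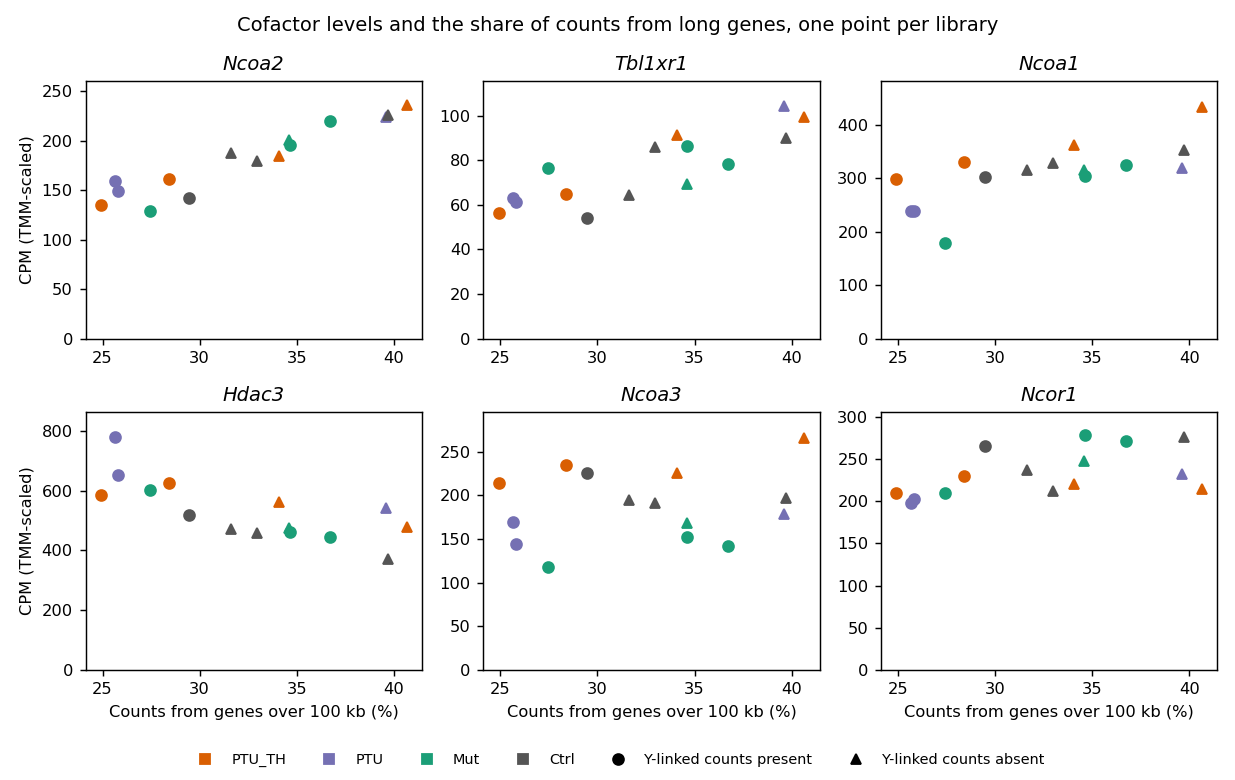
CPM scaled by TMM of 6 cofactor genes (vertical axes from 0) against the percent of counts from genes over 100 kb, with 1 point per library; colour is the group, circles have Y-linked counts and triangles do not. Ncoa2 is low in libraries with a low share, with 135 CPM at a share of 24.9% and 236 CPM at 40.7%, both in PTU_TH, whereas all PTU_TH points of Ncoa3 lie above its PTU points.

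For each member, genes with the most similar pattern over the 15 libraries were taken by the root mean square difference of centred log2 CPM among 10070 genes. Ncoa3 was close to Slc4a8 at 0.12, beside a median of 0.407 over all genes. Ncoa1 was nearest to Ntn4 at 0.0846 and Acbd6 at 0.0997, and Ncoa2 to Prickle2 at 0.0753 and Ahcyl2 at 0.087. Ncor1 was close to Zfp738 at 0.0921, and Hdac3 was nearest to Ttc4 at 0.0561 and Nup88 at 0.0721. The genes nearest to Hdac3 are short like Hdac3, at 16.7 kb and 26.9 kb, and those nearest to Ncoa2 are long like Ncoa2, at 335 kb and 144 kb. Ncor1, at 142.1 kb, was close to the shorter Zfp738, at 28.4 kb.
Tbl1x was nearest to Pias1 at 0.0662 and Sel1l3 at 0.0749, and Tbl1xr1 to Spats2l at 0.114 and Parp8 at 0.124. Med1 was nearest to Clta at 0.0851 and Uhrf2 at 0.0871, and Ep300 to Clpx at 0.0878 and Camsap1 at 0.0901. These distances describe the same 15 libraries and their shared depth and long-gene share.

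Other genes of the same machinery were counted from 3 lists. Of 22 other corepressor genes 21 were tested in each comparison, and edgeR called none in PTU_TH against PTU (3 at an unadjusted p under 0.05, 0 by DESeq2) or in Mut against Ctrl (5 and 1). Rcor1, a scaffold of the CoREST corepressor, was at a log2 fold change of 0.37 (adjusted p = 0.421, edgeR) in PTU_TH against PTU, and the deacetylase Hdac1 was at 0.38 (adjusted p = 0.292) in Mut against Ctrl. In PTU against Ctrl 1 of 21 was called, Lcor, a ligand-dependent corepressor, which fell by 0.62 (adjusted p = 0.0424), while 17% of all genes were called and 12.6% fell. None of the list was called without PTU replicate 6 or 7 or without Ctrl replicate 1, 3 or 4, and 4 were without PTU replicate 5. None was called in PTU_TH against Ctrl (4 at an unadjusted p under 0.05, 1 by DESeq2, and 1 without PTU_TH replicate 2 or Ctrl replicate 2), where Nrip1 was at 0.32 (adjusted p = 0.0545) and Lcor at −0.55 (adjusted p = 0.0656). The median log2 fold change of the list was −0.0445 in PTU_TH against PTU, 0.0699 in Mut against Ctrl, 0.00976 in PTU against Ctrl and 0.0735 in PTU_TH against Ctrl, beside −0.00293, 0.0142, −0.015 and −0.0162 over all genes.

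Of 21 other coactivators and modifiers, none was called in PTU_TH against PTU (0 at an unadjusted p under 0.05, 0 by DESeq2), where Ncoa4 was at 0.24 (adjusted p = 0.836, edgeR) and Smarcd3 at 0.20 (adjusted p = 0.874). None was called in Mut against Ctrl (1 at an unadjusted p under 0.05, 0 by DESeq2), where Trip11 was at −0.35 (adjusted p = 0.335) and Ncoa5 at −0.20 (adjusted p = 0.619). In PTU against Ctrl 3 rose and 3 fell, while 4.38% of all genes rose and 12.6% fell. The acetyltransferase Kat2a rose by 0.67, and the arginine methyltransferases Prmt1 by 0.51 and Carm1 by 0.41. The acetyltransferase Kat5 fell by 1.14, Ncoa4 by 0.83 and Trip11 by 0.53. Ncoa4 is also known as the receptor that delivers ferritin to lysosomes, and Trip11 as a Golgi protein. In PTU_TH against Ctrl Kat2a rose by 0.52, Prmt1 by 0.52 and the chromatin remodelling subunit Smarcd3 by 0.41, while Kat5 fell by 1.36 and Ncoa4 by 0.61; over all genes 4.72% rose and 13.1% fell. The 6 calls of PTU against Ctrl were 2 without PTU replicate 6 or 7 and 3 without Ctrl replicate 4, and the 5 of PTU_TH against Ctrl were 2 without PTU_TH replicate 3. In the same order of comparisons, the medians of this list were 0.0252, −0.00785, −0.0861 and −0.0794.

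Of 32 other Mediator subunits 29 were tested, and none was called in PTU_TH against PTU (1 at an unadjusted p under 0.05, 0 by DESeq2), where Med24 was at −0.41 (adjusted p = 0.546, edgeR) and Med25 at −0.18 (adjusted p = 0.832). None was called in Mut against Ctrl (1 at an unadjusted p under 0.05, 0 by DESeq2), where Med11 was at 0.75 (adjusted p = 0.515) and Cdk8 at −0.32 (adjusted p = 0.58). In PTU against Ctrl 1 rose and 2 fell: Med24 rose by 0.65, while the Mediator kinase Cdk8 fell by 0.98 and Med26 by 0.88. These are 3 of 29 subunits, against 17% of all genes called. In PTU_TH against Ctrl Med22 rose by 0.48, while Cdk8 fell by 1.11 and Med26 by 0.78, again 3 of 29, against 17.8% of all genes. The 3 calls were 1 in PTU against Ctrl without PTU replicate 6 or 7, and 1 in PTU_TH against Ctrl without PTU_TH replicate 1 or 3 or Ctrl replicate 4. The medians were −0.0231, 0.0873, 0.0249 and −0.0049 in the same order. Med1, the subunit that contacts the receptor, averaged 72.5 ± 5.17 CPM in PTU_TH, 71.7 ± 2.36 CPM in PTU, 76.5 ± 7.49 CPM in Mut and 71.9 ± 6.54 CPM in Ctrl.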

How the data were processed

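Sorted nuclear RNA was amplified (SMART-Seq, ultralow input), prepared with Nextera XT and sequenced as single reads of 75 bases, per the labels' protocols. The authors deposited tables of raw counts, 1 for every library and 15 in all. Alignment used Bowtie2 2.5.3 on mm10 with counting by HTSeq, per the submitters' processing notes. Annotation release, strand and counting mode were not given in the sources used here. Counts in shared exons are therefore uncertain. Titles number separate mice, and replicates were read as animals.

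Each comparison used its own libraries in edgeR 4.0.16 (R 4.3.3): filterByExpr with a minimum count of 10, TMM scaling, robust quasi-likelihood fits, and p adjusted over all genes tested by Benjamini-Hochberg, with an adjusted p under 0.05 called. Comparisons with Ctrl used shared symbols only, and the fits were tested on simulated data. Of simulated 1.5-fold changes, 10% were called in PTU_TH against PTU and 12% in Mut against Ctrl. In PTU against Ctrl 22% were called, and 13 of 142 calls were false. In PTU_TH against Ctrl 21% were called, and 15 of 148 calls were false. Levels are TMM-scaled CPM over shared symbols, and an SE is the log2 fold change over the root of F. Among the alternatives were DESeq2 1.42.0, scaling by RLE or upper quartile, no filter or a floor of 1 CPM, all 4 groups in 1 fit, Y-linked counts (over 50 CPM) or long-gene share as a covariate, replicate numbers as a block, and leaving out each library. The biological coefficient of variation was 23% in PTU_TH against PTU and 27.8% in Mut against Ctrl. Promoter windows (GRCm38, RefSeq) read for 6 members held no AGGTCA on either strand. Windows on chromosome 18, where Hdac3 lies, were left out of this member search. They were not left out of the 32851 promoters, of which 16.3% held one.

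The members, lists and tests were chosen with earlier results of these data known. All 9 members are named throughout; from each list every called gene is named, or the 2 with the smallest p, and 2 genes of mean CPM 5 or more are named by similarity to each member. Some genes that these rules select are not reported here.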

Additional observations from a re-analysis of the deposited data

Results flagged for a closer look

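In 27 groups of 4 libraries, the lowest or highest library was checked against the other 3, and 2 stood apart; chance sets about 1 in 20 groups apart. Ncoa1 in Mut replicate 2 was 177.9 CPM, far below the other Mut libraries at 304 to 325 CPM. That library had the lowest long-gene share of Mut and Ctrl, 27.4%, and its part was not tested. Ncoa3 in Ctrl replicate 2 was 225.8 CPM, above the other Ctrl libraries at 191 to 197 CPM. It is the Ctrl library with Y-linked counts; without it, Ncoa3 in Mut against Ctrl was −0.42 (adjusted p = 0.416, edgeR), against −0.48 with it.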

How the results depend on the processing

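With 4 comparisons, 9 members and every setting, 576 member fold changes were compared with those reported: 505 kept their direction and side of the threshold, 12 passed it and 59 changed sign, none of them called. With DESeq2, PTU_TH against PTU called 246 genes and 1 member (Ncoa3), Mut against Ctrl 358 genes, 1 member (Ncoa3) and 1 other corepressor, PTU against Ctrl 3305 genes, 1 member (Hdac3) and 2 other corepressors, and PTU_TH against Ctrl 3395 genes and 1 other corepressor. With Y-linked counts in the fit, PTU_TH against PTU called 335 genes, 1 member (Ncoa3, log2 fold change 0.50, adjusted p = 0.0187) and 1 other corepressor, Mut against Ctrl 31 genes, and PTU_TH against Ctrl 2 other corepressors. With the long-gene share in the fit, PTU_TH against PTU called 1011 genes, 2 members (Ncoa1 and Ncoa3), 4 other corepressors and 1 other Mediator subunit, Mut against Ctrl 210 genes and 1 other corepressor, PTU against Ctrl 4008 genes and 1 member (Hdac3, 0.43), and PTU_TH against Ctrl 4536 genes, 1 member (Hdac3, 0.27), 3 other corepressors, 8 other coactivators and 5 other Mediator subunits. One fit of all 4 groups called 196 genes in Mut against Ctrl, 3150 genes (18.2%) and 1 member (Hdac3) in PTU against Ctrl and 1 other corepressor in PTU_TH against Ctrl. A floor of 1 CPM called 90 genes in Mut against Ctrl, and no filter called 3288 genes (13.4%) and 1 member (Hdac3) in PTU against Ctrl. The cause of these differences was not tested.

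Leaving out 1 library, PTU_TH against PTU called 5 to 29 genes and 0 members, Mut against Ctrl 11 to 103 genes, 0 members and 0 to 1 other corepressors, PTU against Ctrl 2061 to 4283 genes, 0 to 2 members, 0 to 4 other corepressors, 2 to 9 other coactivators and 1 to 4 other Mediator subunits, and PTU_TH against Ctrl 2380 to 3270 genes, 0 members, 0 to 1, 2 to 6 and 1 to 4 of those lists. The lowest and highest counts of all genes came without PTU_TH replicates 1 and 4 in PTU_TH against PTU, without Ctrl replicate 3 and PTU replicate 5 in PTU against Ctrl, and without Ctrl replicate 4 and PTU_TH replicate 2 in PTU_TH against Ctrl, and the highest in Mut against Ctrl came without Mut replicate 2. Ncoa3 ran from 0.44 to 0.62 in PTU_TH against PTU (adjusted p 0.216 to 0.851, edgeR) and from −0.56 to −0.39 in Mut against Ctrl (0.164 to 0.416).

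Sign changes in settings other than omissions were small values. In PTU_TH against PTU, Tbl1xr1 was −0.071 with Y-linked counts and −0.0416 with the long-gene share, and Ncoa2 was −0.0676, −0.0597 and, with upper quartile scaling, −0.00128. In Mut against Ctrl, Ncor1 was −0.0127 with Y-linked counts. In PTU against Ctrl, Ncoa2 was 0.157 with Y-linked counts and 0.0835 with the long-gene share, and Med1 was −0.00298 with DESeq2, −0.00293 with RLE, −0.0248 with upper quartile scaling, −0.00877 with the floor and −0.00404 with all 4 groups. In PTU_TH against Ctrl, Tbl1x was 0.0195 and Ncoa2 0.0736 with Y-linked counts, Tbl1x 0.00794 and Ncoa2 0.0171 with the long-gene share, and Med1 −0.0133 with upper quartile scaling.

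With 1 library left out, sign changes occurred in 15 member values. In PTU_TH against PTU, Tbl1xr1 ran from −0.115 to 0.361, Ncoa2 from −0.156 to 0.249, Med1 from −0.00931 to 0.0669 and Ep300 from −0.00304 to 0.0673. In Mut against Ctrl, Ncor1 ran from −0.0424 to 0.103, Tbl1xr1 from −0.0481 to 0.185, Ncoa2 from −0.0857 to 0.161 and Ep300 from −0.0669 to 0.174. In PTU against Ctrl, Tbl1xr1 ran from −0.25 to 0.186, Ncoa2 from −0.259 to 0.0771 and Med1 from −0.0658 to 0.0507. In PTU_TH against Ctrl, Tbl1x ran from −0.0626 to 0.0408, Tbl1xr1 from −0.0648 to 0.21, Ncoa2 from −0.209 to 0.0755 and Med1 from −0.0505 to 0.0483.

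Whether replicate numbers of Mut and Ctrl pair the libraries was not settled. Same-numbered deviations correlated at 0.12, 0.20, −0.02 and 0.08. Mut replicates 1 and 2 were nearest to the Ctrl library of their own number, and Mut replicates 3 and 4 were not. With the number as a block, Mut against Ctrl called 82 genes and 0 members (Ncoa3 −0.49, adjusted p = 0.158), and PTU_TH against Ctrl 2424 genes and 0 members, with correlations of 0.09, −0.21, −0.05 and 0.08. The intervals rest on groups of 3 or 4 animals, and every member had at least 798 counts in each library.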
